A study of Homo sapiens with 6 samples.

Results

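The stage 6 culture of the line HUES8 was set against the stage 6 cultures of the line H1. Both are established human embryonic stem cell lines, and stage 6 is the last step of a protocol that takes such cells toward the pancreatic endocrine lineage. HUES8 supplied differentiation 3, with 2 of the 6 arrays, and H1 supplied differentiations 1 and 2, with 4 arrays. One portion of each culture was lysed fresh and extracted on a column (live), and the other was fixed in paraformaldehyde, permeabilized, stained with antibodies, run through the sorter with all cells kept and extracted with a kit for fixed material (processed). The labels name no drug treatment or genetic change in either line, and the same pancreatic differentiation protocol is given for both. HUES8 was represented by 1 culture, so the line and the culture cannot be told apart. In RNA of whole cultures, fewer cells of a type and less RNA per cell cannot be told apart either.

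Expression was read as the deposited Illumina bead array intensities. The live and processed arrays of a differentiation were averaged as log2(intensity + 20), with values below 0 set to 0, and each gene was asked whether the HUES8 mean lay outside both H1 means. Every per-array value below is an intensity, and every difference is HUES8 minus the mean of the H1 differentiations on this log2 scale. Of 31410 genes, 13483 (42.9%) reached an intensity of 40 on at least 2 arrays and were compared. TRIML2 was just inside this limit, with a second highest intensity of 40.0008, and C14orf118 just outside it, with 39.9703. HUES8 lay outside both H1 means for 9374 genes, 69.5% of those compared, above them for 4793 (35.5%) and below them for 4581 (34%). The median intensity per array lay between 22.5 and 27.4, and 12297 to 12698 genes per array reached 40. A gene under 40 on every array of one line was compared only because the other line was bright, so its p-value is not independent of this filter.

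ATF4 is a transcription factor whose protein is made when cells slow the start of translation, as they do when amino acids run short or when proteins misfold in the endoplasmic reticulum (ER). It pairs with members of the C/EBP family and switches on genes for amino acid synthesis, amino acid uptake and tRNA charging, and DDIT3 encodes CHOP, a partner that acts on many of the same genes. Liver, pancreas and intestine arise from neighbouring endoderm, and cultures directed toward the pancreas can also hold cells of the liver or gut lineage.

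Markers of the pancreatic endocrine lineage were present in both lines. INS, which encodes insulin, stood at 4612 and 5069 on the HUES8 arrays, against 4386, 4133, 2627 and 1898 on the H1 arrays. In each such series the live value comes before the processed one, and H1 differentiation 1 before differentiation 2. CHGA, a protein of endocrine secretory granules, gave 10502 and 8479 on the HUES8 arrays, against 16612, 15272, 9761 and 7128 on the H1 arrays. NKX6-1, a transcription factor of mature beta cells, was under 40 on all 6 arrays, as were the endothelial markers PECAM1 and CDH5, the blood cell marker PTPRC and the pluripotency factors POU5F1 and NANOG. The RNA-binding protein gene LIN28 lay between 1756 and 3275.

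With limma, 55 genes were called higher in HUES8 (0.408% of the 13483) and 121 lower (0.897%) at an adjusted p under 0.05, 176 genes or 1.31% in all. At an unadjusted p under 0.05, 621 genes were higher and 759 lower, 10.2% in all. All 176 had both HUES8 arrays outside the range of the 4 H1 arrays, which held for 19.1% of all genes above that range and 18.1% below it. All 176 were also at least 2-fold apart on the live arrays alone and on the processed arrays alone. Both sets of arrays entered the means that gave the calls, so this is not separate support. HUES8 was at least 2-fold from the H1 mean and outside both H1 means for 329 genes on the higher side (2.44%) and 469 on the lower (3.48%), and the H1 differentiations were at least 2-fold apart for 567 genes. The HUES8 culture was 2-fold or more from H1 differentiation 1 in 1035 genes and from H1 differentiation 2 in 993. The last gene called was FOXA1, with an adjusted p of 0.0489, and the first not called was SLC8A2, with 0.0506. The spread came from the gap between the H1 differentiations alone, and the HUES8 culture was assumed to vary like them. With 1 culture against 2, an exact permutation test of a single gene cannot go below p = 0.333. Without the live array of H1 differentiation 2, 5 genes were called higher and 23 lower, and without its processed array 5 and 18. Without the live array of H1 differentiation 1 the counts were 96 and 170, without its processed array 125 and 226, and without the processed HUES8 array 88 and 159.

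**Figure D1:**
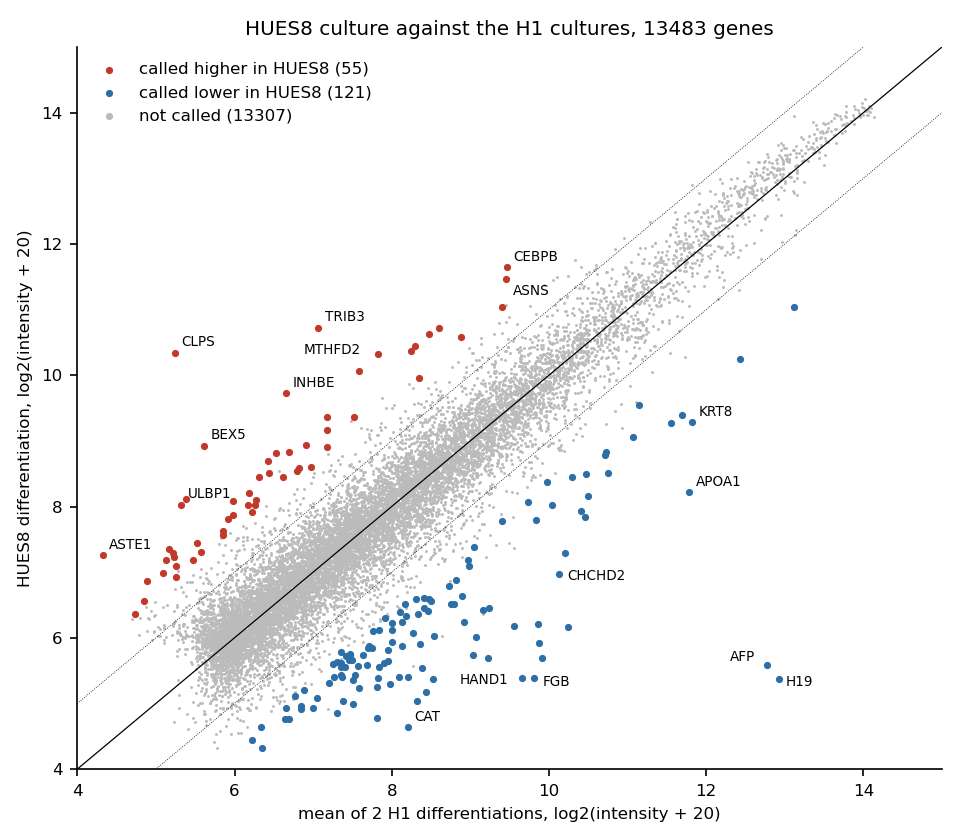
Each of the 13483 points is a gene, with its HUES8 mean on the vertical axis and its H1 mean on the horizontal axis, both as log2(intensity + 20). Red points are the 55 genes called higher in HUES8, blue points the 121 called lower, and dotted lines mark 2-fold differences.

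Among 34 gene lists, that of the ATF4 and CHOP response had the most members called higher. The lists were chosen with earlier results of these data known, so their shares are not independent support. For comparison with this and later lists, 0.408% of all 13483 genes were called higher and 0.897% lower. Above both H1 means lay 35.5% of all genes, and below both 34%. Of 29 measured members of this list, 12 were called higher and 0 lower, and all 29 had a HUES8 mean above both H1 means. The median log2 difference of the list was 1.36, against 0.0153 over all genes, and the same list differed by -0.0134 between the H1 differentiations (2 minus 1). Without the live or the processed array of H1 differentiation 2, 2 members were called, TRIB3 and INHBE. Of the 32 genes on the list, FGF21, SLC7A11 and NUPR1 were too dim to be compared. Members not listed among the highest differences or nearest to 0, here and in the lists that follow, were chosen for naming after their values were seen.

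Among the transcription factors of this group, DDIT3 stood at 667 and 612 on the HUES8 arrays, against 122, 119, 124 and 134 on the H1 arrays. The log2 difference was 2.19 ± 0.34 (SE), or 4.55-fold (limma, adjusted p = 0.00902). The H1 arrays lay within a narrow band, and both HUES8 arrays were well above it. CEBPB, a C/EBP family member, gave 3428 and 2959.9 on the HUES8 arrays, against 836, 813, 607 and 534 on the H1 arrays (log2 difference 2.18 ± 0.37, limma adjusted p = 0.012). ATF5, a relative of ATF4, stood at 1115 and 997 on the HUES8 arrays, against 209.8, 171, 187 and 131 on the H1 arrays (log2 difference 2.48 ± 0.35, limma adjusted p = 0.00448). The lines did not overlap for either gene, and H1 differentiation 2 was the lower H1 culture for both. ATF4 itself was bright, at 2921 and 2747 on the HUES8 arrays, against 2073, 1671, 1976 and 1368 on the H1 arrays. Its difference of 0.69 was not called (limma adjusted p = 0.552), with a 95% interval of -0.06 to 1.44. ATF3, another stress-induced factor of the family, had a log2 difference of 0.88 (limma adjusted p = 0.348).

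Enzymes that make amino acids or supply their carbon formed the next set. ASNS, asparagine synthetase, gave 3009 and 2641 on the HUES8 arrays, against 655, 719, 695 and 665 on the H1 arrays. It was 4.04-fold higher (log2 difference 2.01 ± 0.34, limma adjusted p = 0.0129), and the H1 differentiations differed by -0.01 on the log2 scale (2 minus 1). PSAT1, of serine synthesis, stood at 1739 and 1096 on the HUES8 arrays, against 354, 269, 254 and 307 on the H1 arrays (log2 difference 2.16 ± 0.34, limma adjusted p = 0.00945). MTHFD2, a mitochondrial folate enzyme, gave 1434 and 1117 on the HUES8 arrays, against 171, 187, 221 and 261 on the H1 arrays (log2 difference 2.50 ± 0.36, limma adjusted p = 0.00474). For all of these the lowest HUES8 array was above the highest H1 array. PCK2, mitochondrial phosphoenolpyruvate carboxykinase, stood at 423 and 445 on the HUES8 arrays, against 97.9, 91.7, 82.8 and 66.1 on the H1 arrays (4.37-fold, limma adjusted p = 0.0112). CTH, which makes cysteine from cystathionine, gave 241 and 240.2 on the HUES8 arrays, against 65.1, 52.1, 44.4 and 47.7 on the H1 arrays (3.62-fold, limma adjusted p = 0.0197). Members nearest to 0 were PHGDH, PPP1R15A and VLDLR. PHGDH, the first enzyme of serine synthesis, stood at 6907 and 7629.8 on the HUES8 arrays, against 6949.6, 6579.6, 5349 and 3869 on the H1 arrays, where the arrays overlapped (log2 difference 0.39, limma adjusted p = 0.857, interval -0.42 to 1.19). PPP1R15A, which restores translation after stress, gave 901 and 833 on the HUES8 arrays, against 849, 687, 629 and 504 on the H1 arrays (log2 difference 0.39, limma adjusted p = 0.843).

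Regulators and secreted factors of the response included the members with the largest differences of the list, TRIB3 and INHBE. TRIB3, a pseudokinase that binds ATF4 and CHOP, stood at 1585 and 1764 on the HUES8 arrays, against 109, 116, 107 and 124 on the H1 arrays. The mean was 12.6-fold higher (log2 difference 3.66 ± 0.34, limma adjusted p = 0.000232), and the 4 H1 arrays were close to each other. INHBE, an activin chain, gave 804 and 851 on the HUES8 arrays, against 78.3, 68.2, 96.7 and 81.6 on the H1 arrays (8.42-fold, limma adjusted p = 0.000954). GDF15, a secreted stress factor, stood at 348 and 444 on the HUES8 arrays, against 120, 102, 34.6 and 38.8 on the H1 arrays (log2 difference 2.26 ± 0.45, limma adjusted p = 0.0284). The groups did not overlap for GDF15, but the H1 differentiations were 1.21 apart on the log2 scale, and the call was lost under 5 of 15 alternatives. CHAC1, which degrades glutathione, gave 119 and 133 on the HUES8 arrays, against 20.4, 6.93, 19.1 and 15.1 on the H1 arrays. All H1 arrays were below 40 for CHAC1, so it passed the filter only through the HUES8 arrays. With the H1 arrays set to 40 the HUES8 culture was at least 2.43-fold higher. Its adjusted p of 0.012 (limma) is not independent of the filter. STC2, a secreted glycoprotein, stood at 2001 and 2278 on the HUES8 arrays, against 511, 562, 871 and 858 on the H1 arrays and was not called (log2 difference 1.62, limma adjusted p = 0.0687).

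Amino acid transporters outside that list were chosen after their values were seen. SLC7A1, a carrier of cationic amino acids, gave 1642 and 1408 on the HUES8 arrays, against 359.7, 387, 570.1 and 531 on the H1 arrays (3.25-fold, limma adjusted p = 0.0428). SLC1A4, a carrier of neutral amino acids, stood at 102 and 134 on the HUES8 arrays, against 20.5, 9.69, 24.4 and 20.5 on the H1 arrays. With the dim H1 arrays set to 40 it was at least 2.29-fold higher (limma adjusted p = 0.0212), and it passed the filter only through the HUES8 arrays. In the opposite direction, SLC7A7, the light chain of another cationic amino acid exchanger, gave 20.1 and 33.8 on the HUES8 arrays, against 256, 308, 369 and 339 on the H1 arrays. It was at least 5.59-fold lower in HUES8 (adjusted p = 0.0018 by limma), and SLC7A2 was at least 2.86-fold lower (adjusted p = 0.0298 by limma). Carriers of the SLC7 family were therefore called in both directions.

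**Figure D2:**
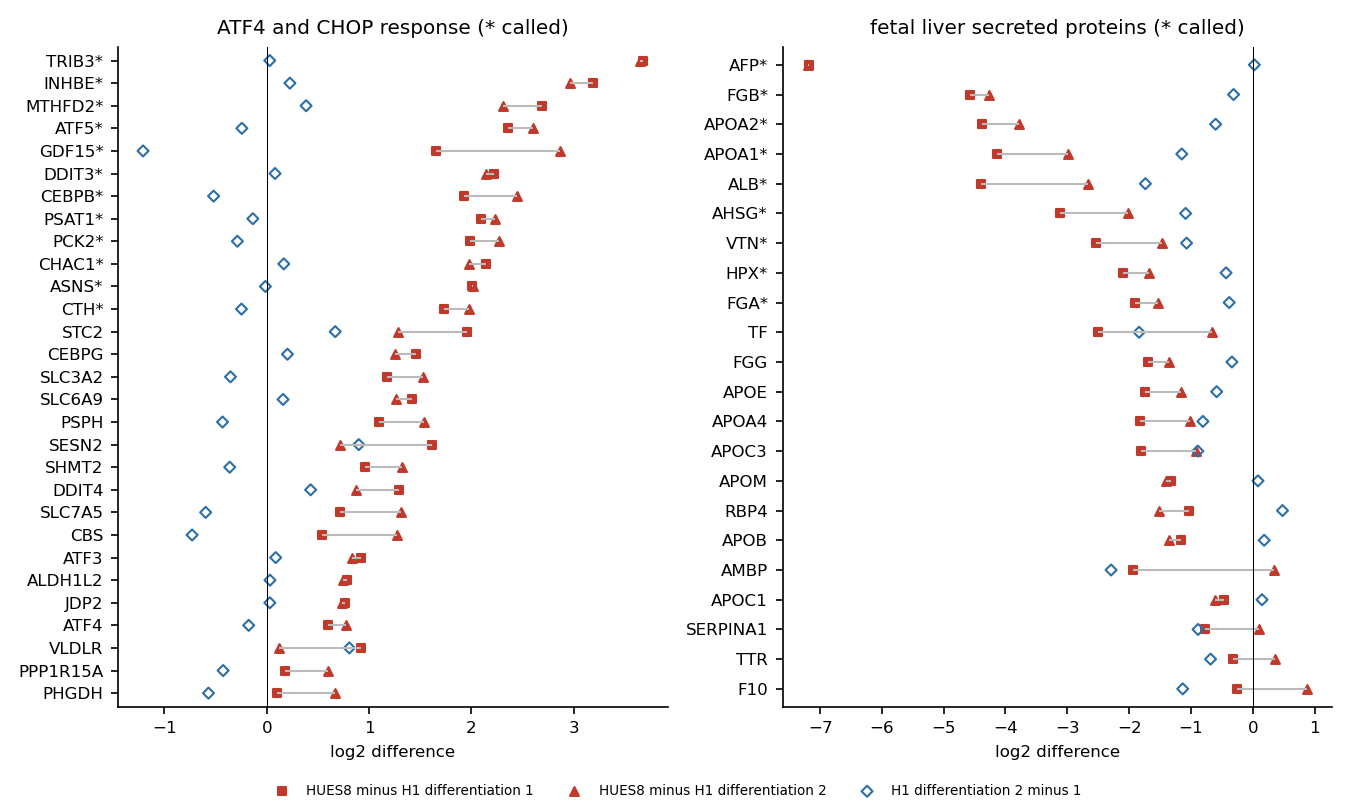
Log2 differences of the measured members of the ATF4 and CHOP response and of the fetal liver list, with HUES8 minus H1 differentiation 1 as squares, HUES8 minus H1 differentiation 2 as triangles and H1 differentiation 2 minus 1 as open diamonds. All 29 members on the left lie to the right of 0 against both H1 cultures, and 18 of 22 on the right lie to the left of 0 against both.

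The cytosolic aminoacyl tRNA synthetases, which load each amino acid onto its tRNA, were split. Of 19 measured, 1 was called higher and 0 lower (2 higher without the live array of H1 differentiation 1, 5 without its processed array, 2 without either HUES8 array and 0 without either array of H1 differentiation 2). Of these genes 14 had a HUES8 mean above both H1 means and 0 below both, and the median difference was 0.693. Of all genes, 35.5% lay above both H1 means and 0.408% were called higher. YARS, for tyrosine, stood at 2182 and 1977 on the HUES8 arrays, against 695, 588, 708 and 646 on the H1 arrays (3.09-fold, limma adjusted p = 0.0371). Its call was lost under 6 of 16 alternatives, among them quantile normalization, live arrays only and processed arrays only. CARS, for cysteine, gave 538 and 594 on the HUES8 arrays, against 129, 164, 215 and 204 on the H1 arrays, a difference of 1.59 that missed the threshold (limma adjusted p = 0.059). AARS, for alanine, stood at 3439.7 and 3405 on the HUES8 arrays, against 1129.6, 1045, 1629.6 and 1345 on the H1 arrays (log2 difference 1.42, limma adjusted p = 0.0918). For each of these, both HUES8 arrays lay above all H1 arrays. The log2 differences of GARS (1.40), TARS (1.33), SARS (1.33) and IARS (1.17) also exceeded 1 without a call. At the other end, RARS, for arginine, gave 1086 and 1065 on the HUES8 arrays, against 1021, 1042, 1494 and 1135 on the H1 arrays, with overlapping arrays (log2 difference -0.11, interval -0.87 to 0.66). The log2 differences of HARS (-0.05), KARS (0.01), QARS (0.02) and VARS (0.09) were near 0 as well.

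The synthetases also differed in a short sequence at their start sites. ATF4 with a C/EBP partner binds a composite element, here searched as TGATGNAA on both strands in RefSeq windows that run 250 bases upstream to 50 bases downstream of an annotated start (assembly GRCh38.p14). The letters were found for 1217 of 27305 genes (4.46%). Among 15 synthetases with a window, 7 held a match (46.7%), and their median difference was 1.33, between 0.654 and 1.59. The 8 without a match had a median of 0.125, between -0.106 and 1.33, with SARS at the top. No window was matched for YARS, LARS, DARS and VARS. No test was made between these genes, and a match of letters is not evidence of binding. SARS (1.33) and EPRS (0.738), without a match, lay above MARS (0.654), which holds one. The stretches around the matches are printed for the 7 synthetases that hold one. They are given in the sense of the gene from 5′ to 3′, with the match in capitals, which for an element on the opposite strand is its reverse complement.
CARS1 (chr11:3057394-3057461, minus strand): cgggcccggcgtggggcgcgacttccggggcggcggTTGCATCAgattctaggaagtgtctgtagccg
AARS1 (chr16:70289650-70289729, minus strand): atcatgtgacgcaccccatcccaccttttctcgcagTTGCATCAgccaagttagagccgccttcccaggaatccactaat
GARS1 (chr7:30594809-30594888, plus strand): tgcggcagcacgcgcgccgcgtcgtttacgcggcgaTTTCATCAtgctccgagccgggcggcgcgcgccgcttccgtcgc
TARS1 (chr5:33440931-33440994, plus strand): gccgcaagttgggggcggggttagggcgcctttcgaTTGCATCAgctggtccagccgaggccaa
IARS1 (chr9:92293668-92293746, minus strand): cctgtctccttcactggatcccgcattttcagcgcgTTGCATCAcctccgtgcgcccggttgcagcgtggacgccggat
NARS1 (chr18:57621807-57621858, minus strand): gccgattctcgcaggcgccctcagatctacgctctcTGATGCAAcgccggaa
MARS1 (chr12:57488028-57488097, plus strand): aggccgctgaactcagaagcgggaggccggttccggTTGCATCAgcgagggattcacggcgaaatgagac
The array names for these genes lack the final 1. CARS, AARS, IARS, NARS, MARS and TARS carried the form TGATGCAA or its reverse, and GARS carried TGATGAAA in reverse.

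**Figure D3:**
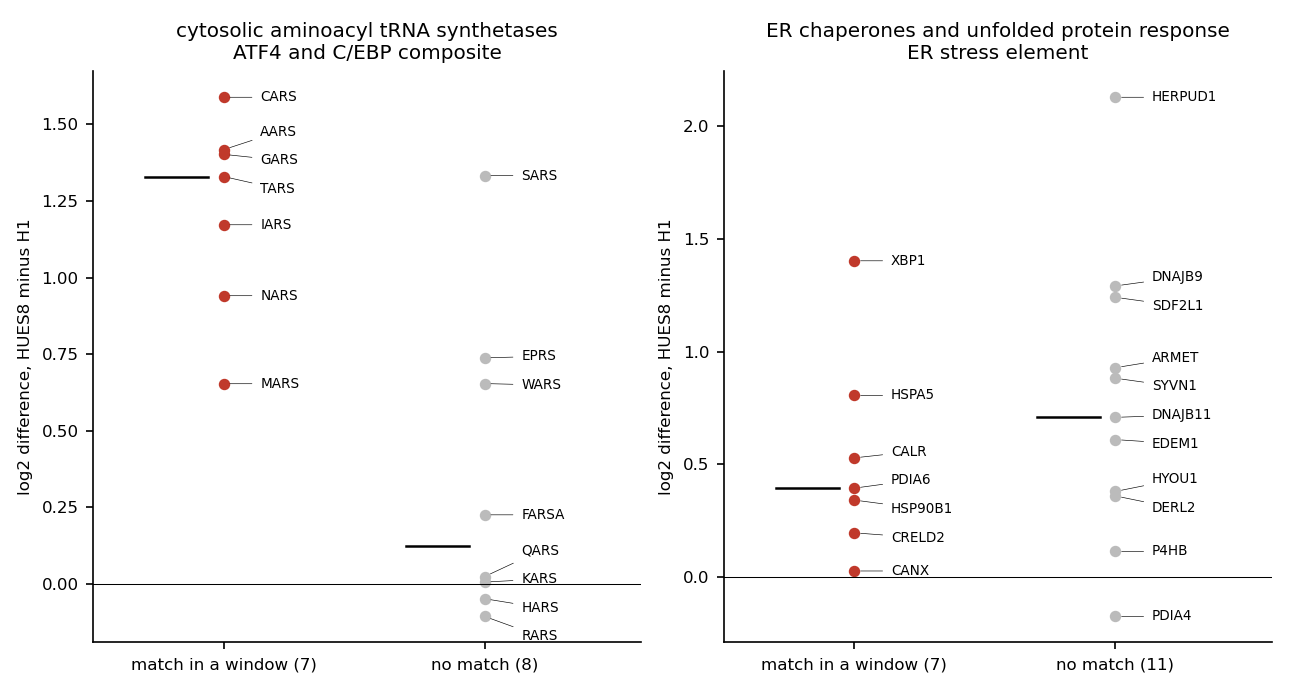
Log2 differences, HUES8 minus H1, of genes with and without a match in any RefSeq window, with black bars at the medians. The 7 synthetases with the ATF4 and C/EBP element have a median of 1.33 and the 8 without it 0.125, while the 7 ER genes with the ER stress element have a median of 0.395 and the 11 without it 0.708.

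In the ATF4 and CHOP list the same letters did not split the members. They were found for 6 of 25 genes with a window (24%), whose median difference was 1.36, against 1.62 for the 19 without them. Over all genes called higher, 6 of 38 with a window held a match (15.8%), against 2 of 75 called lower (2.67%). The windows of ASNS, CHAC1 and HERPUD1 are printed as examples from genes called higher, and that of CEBPG, the dimer partner gene that differed by 1.36 without being called (limma adjusted p = 0.0942), as one from the same list.
ASNS (chr7:97872433-97872512, minus strand): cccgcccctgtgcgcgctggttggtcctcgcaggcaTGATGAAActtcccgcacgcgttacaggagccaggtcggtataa
CHAC1 (chr15:40953226-40953305, plus strand): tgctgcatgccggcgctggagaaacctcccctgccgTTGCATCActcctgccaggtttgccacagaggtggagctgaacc
HERPUD1 (chr16:56931930-56932009, plus strand): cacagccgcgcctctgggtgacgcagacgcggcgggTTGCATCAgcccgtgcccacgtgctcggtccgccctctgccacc
CEBPG (chr19:33374035-33374114, plus strand): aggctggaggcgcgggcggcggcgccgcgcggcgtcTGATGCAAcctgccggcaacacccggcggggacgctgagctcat
In ASNS and CEBPG the match lies on the strand of the gene, and in CHAC1 and HERPUD1 on the opposite strand.

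Chaperones and folding enzymes of the ER gave a single call. Of 19 measured, 1 was called higher and 0 lower, beside 0.408% and 0.897% of all genes. The count called higher was 2 without the live array of H1 differentiation 1 and 0 without either array of differentiation 2. For 17 the HUES8 mean was above both H1 means, beside 35.5% of all genes. The median difference was 0.529, against -0.0492 between the H1 differentiations. HERPUD1, of the pathway that removes misfolded ER proteins, was the member called and stood at 1303 and 1297 on the HUES8 arrays, against 259.6, 255, 289 and 332 on the H1 arrays (4.36-fold, limma adjusted p = 0.0111). XBP1, a transcription factor of the unfolded protein response, gave 2741 and 2823 on the HUES8 arrays, against 1238, 912, 1049 and 988 on the H1 arrays (log2 difference 1.40, limma adjusted p = 0.0802). HSPA5, the ER chaperone BiP, stood at 712 and 565 on the HUES8 arrays, against 370.2, 318, 366 and 366 on the H1 arrays (log2 difference 0.81, limma adjusted p = 0.434). The HUES8 arrays were above the H1 arrays for all of these, but by amounts that ran between 0.81 and 2.13. CANX, calnexin, and PDIA4, a disulfide isomerase, had log2 differences of 0.03 and -0.17.

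The ER stress element, searched as CCAAT and CCACG separated by 9 unspecified bases on both strands in the same windows, was found for 25 of 27305 genes (0.0916%) and for 7 of 18 ER genes with a window (38.9%). Here the genes with a match had the lower median difference, 0.395, against 0.708 for the 11 without one. Stretches from XBP1 and HSP90B1 are printed because these genes with the element lay far apart, at log2 differences of 1.40 and 0.34. HSP90B1 encodes an ER chaperone and holds a pair of matches. Capitals mark the whole element.
XBP1 (chr22:28800567-28800657, minus strand): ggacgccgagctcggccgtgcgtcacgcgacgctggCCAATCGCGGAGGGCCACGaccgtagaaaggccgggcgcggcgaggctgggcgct
HSP90B1 (chr12:103930180-103930270, plus strand): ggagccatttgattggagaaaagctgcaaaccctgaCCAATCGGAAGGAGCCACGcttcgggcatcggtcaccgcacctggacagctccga
HSP90B1 (chr12:103930285-103930375, plus strand): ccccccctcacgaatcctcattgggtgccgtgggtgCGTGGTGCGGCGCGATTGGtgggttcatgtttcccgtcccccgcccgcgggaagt
The second HSP90B1 stretch carries the element on the opposite strand.

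Genes of cholesterol synthesis lay on the higher side without a call. Of 20 measured, 0 were called in either direction (limma), with 6 higher at an unadjusted p under 0.05 and 0 lower, beside 10.2% of all genes in either direction. For 18 the HUES8 mean was above both H1 means, beside 35.5% of all genes. The median difference was 0.645, against -0.267 between the H1 differentiations. STARD4, a carrier of cholesterol inside cells, gave 76 and 78.1 on the HUES8 arrays, against 26.2, 24.1, 27.6 and 31.2 on the H1 arrays (at least 1.62-fold, limma adjusted p = 0.226). CYP51A1, which removes a methyl group from lanosterol, stood at 732 and 809.9 on the HUES8 arrays, against 374, 481, 415 and 235 on the H1 arrays (log2 difference 1.04, limma adjusted p = 0.258). HMGCS1, which makes the precursor of mevalonate, gave 2768 and 2353 on the HUES8 arrays, against 1101, 1249, 1665 and 1503 on the H1 arrays (log2 difference 0.90, limma adjusted p = 0.375). Both HUES8 arrays were above all H1 arrays for each of these. Among 23 genes of hypoxia and glycolysis 0 were called by limma, 4 were higher at an unadjusted p under 0.05 and 0 lower (10.2% of all genes in either direction), and the median was 0.399. Without the processed array of H1 differentiation 1, 1 of them was called higher. VEGFA, an angiogenic factor, stood at 525 and 579 on the HUES8 arrays, against 235, 258, 146 and 157 on the H1 arrays (log2 difference 1.42, limma adjusted p = 0.108).

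CLPS had the largest fitted difference of the genes called higher. It encodes colipase, the pancreatic cofactor of lipase, and gave 1103 and 1481 on the HUES8 arrays, against 12.9, 8.39, 30.1 and 23.2 on the H1 arrays. All H1 arrays were under 40, so the gene passed the filter only through the HUES8 arrays, and the fitted difference depends on the offset. With the H1 arrays set to 40 it was at least 21.6-fold higher in HUES8 (limma adjusted p = 3.73e-05). Of the 13 measured genes of digestive enzymes and ducts, CLPS was the only one called, and the median was 0.484. The calls became 3 higher without the live array of H1 differentiation 1, and 4 higher and 1 lower without its processed array. PRSS1, trypsinogen, stood at 294 and 418 on the HUES8 arrays, against 147, 133, 32.2 and 40.8 on the H1 arrays and was not called (log2 difference 1.97, limma adjusted p = 0.0955). CPA1, a carboxypeptidase, gave 153 and 153 on the HUES8 arrays, against 76.3, 77.8, 6.14 and 19.6 on the H1 arrays (log2 difference 1.63, limma adjusted p = 0.206). HUES8 was above all H1 arrays for both, and H1 differentiation 1 was much brighter than differentiation 2 (1.59 apart on the log2 scale for CPA1). GP2, a protein of pancreatic zymogen granules named after its values were seen, was at least 2.43-fold higher (limma adjusted p = 0.0283). The duct gene KRT7, under 40 on both HUES8 arrays, lay on the other side, at least 1.59-fold lower, and was not called (limma adjusted p = 0.144).

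Neuronal genes were also on the higher side. Of 16 measured, 2 were called higher and 0 lower, beside 0.408% and 0.897% of all genes. The count called higher was 0 without the live or the processed array of H1 differentiation 2, and 1 without the live HUES8 array. For 11 the HUES8 mean was above both H1 means, beside 35.5% of all genes. The median difference was 0.736, against -0.0167 between the H1 differentiations. ELAVL3, a neuronal RNA-binding protein, stood at 278 and 232 on the HUES8 arrays, against 61.4, 54.7, 55.4 and 57.3 on the H1 arrays (3.55-fold, limma adjusted p = 0.0197). STMN4, a stathmin of neurons, gave 175 and 109 on the HUES8 arrays, against 20.4, 19.6, 39.5 and 33.5 on the H1 arrays (at least 2.64-fold, limma adjusted p = 0.0366), and its call was lost under 7 of 14 alternatives. All H1 arrays were under 40 for STMN4, so it passed the filter only through the HUES8 arrays. With 40 or more required on 3 arrays, 1 of 14 neuronal genes was called higher. STMN2 was not called, at 1356 and 1208 on the HUES8 arrays, against 582, 494, 541 and 399 on the H1 arrays (log2 difference 1.32, limma adjusted p = 0.102). The arrays of the lines did not overlap for these genes. The neuronal genes DCX and GAP43 had log2 differences of -0.07 and -0.03, and the neural crest factor SOX10 one of -0.31. HES5, a Notch target of neural progenitors, stood at 1924 and 1458 on the HUES8 arrays, against 514, 365, 371 and 267 on the H1 arrays (4.35-fold, limma adjusted p = 0.0129). SOX2, of neural and pluripotent cells, gave 2124 and 2069 on the HUES8 arrays, against 651, 711, 1107 and 1014 on the H1 arrays (log2 difference 1.28, limma adjusted p = 0.149). The HUES8 arrays were above the H1 arrays for HES5 and SOX2 alike.

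Other genes among the 15 highest fell outside these lists. BEX5, of a family of small brain-expressed proteins, stood at 435 and 502 on the HUES8 arrays, against 46.1, 11.1, 35.7 and 29.9 on the H1 arrays. With the 3 of 4 H1 arrays that were under 40 set to 40, it was at least 7.93-fold higher (limma adjusted p = 0.000567), while the 11 measured genes of its family and of the related TCEAL genes had a median of 0.0798 and 1 call. For ASTE1, values were 127 and 139.7 on the HUES8 arrays, against -5.36, -1.47, -7.18 and -6.01 on the H1 arrays. The H1 values lay below background on all 4 arrays, so the gene passed the filter only through the HUES8 arrays. Set to 0, these values leave no spread between the H1 differentiations, and the adjusted p of 0.00109 (limma) carries no weight of its own. HUES8 was at least 2.55-fold higher. ULBP1, a stress-induced ligand of natural killer cells, gave 276 and 211 on the HUES8 arrays, against 22, 1.48, 33.3 and 33.3 on the H1 arrays (at least 4.36-fold, limma adjusted p = 0.00633). GALR2, a galanin receptor, stood at 222 and 296 on the HUES8 arrays, against 74.9, 45.3, 1.002 and 3.53 on the H1 arrays (limma adjusted p = 0.0348). For GALR2 the H1 differentiations were 1.82 apart on the log2 scale, and the call was lost under 6 of 15 alternatives. FAM181A gave 459.6 and 405 on the HUES8 arrays, against 83.3, 50.4, 84.5 and 76.6 on the H1 arrays (4.88-fold, limma adjusted p = 0.00756), and PHYHIPL stood at 176 and 115 on the HUES8 arrays, against 18.9, 5.06, 21.2 and 21.3 on the H1 arrays (at least 2.72-fold, limma adjusted p = 0.0111). ULBP1 and PHYHIPL, like ASTE1, passed the filter only through the HUES8 arrays, so their p-values are not independent of it. Outside the 15 highest, PCSK1, the convertase that cuts proinsulin, was the member called among 10 granule and processing genes (0 without the live or the processed array of H1 differentiation 2), and stood at 168 and 170 on the HUES8 arrays, against 37.9, 22.9, 51.9 and 41.7 on the H1 arrays (limma adjusted p = 0.0359). For each of these genes the lines did not overlap, and the call of PCSK1 was lost under 6 of 15 alternatives.

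**Figure D4:**
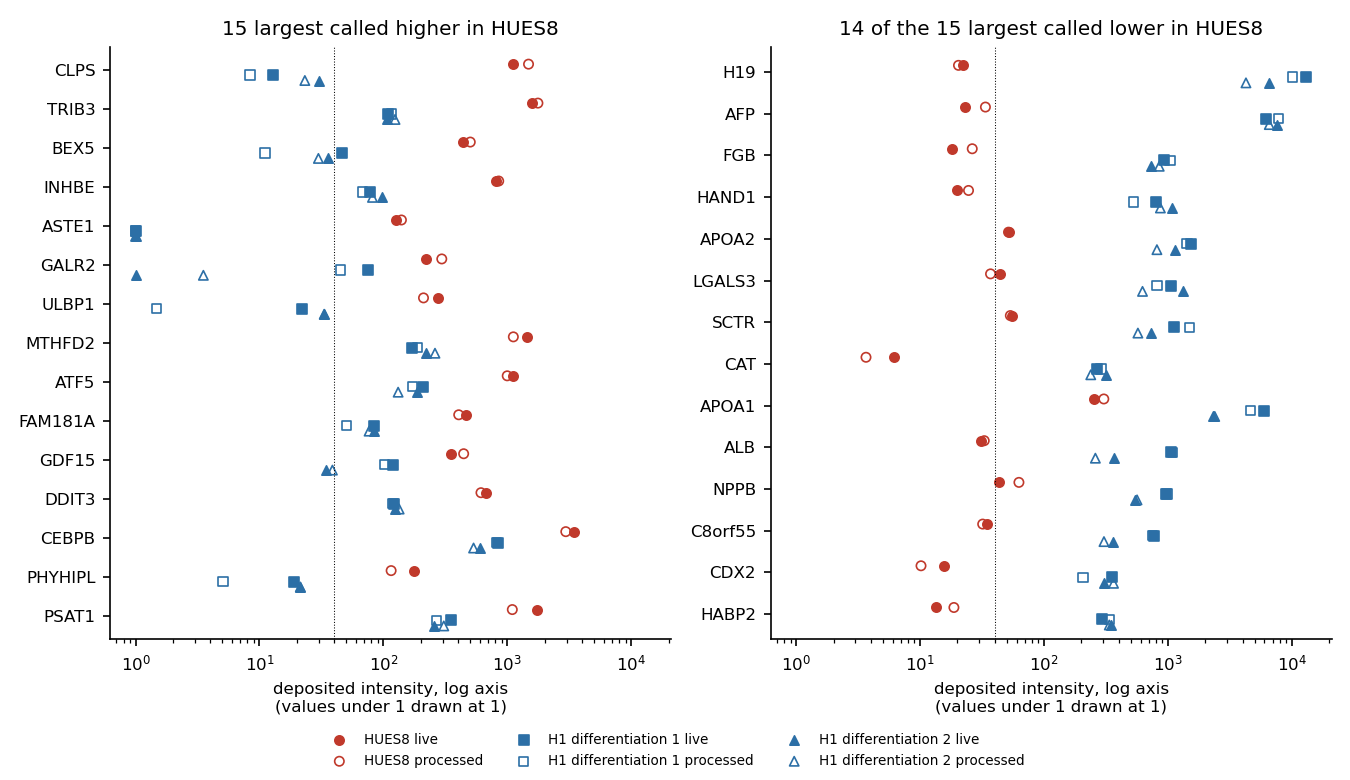
Deposited intensities on a log axis for the 15 genes with the largest differences called higher and 14 of the 15 called lower, with HUES8 arrays as red circles, H1 differentiation 1 as blue squares and differentiation 2 as blue triangles (filled live, open processed). Values under 1 are drawn at 1, the dotted line marks 40, and for each gene both red circles lie outside the range of the 4 blue symbols.

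Among the 34 lists, that of secreted proteins of fetal liver had the most members called lower in HUES8. Of 22 measured, 9 were called lower and 0 higher, 18 had a HUES8 mean below both H1 means, and the median difference was -1.49. Over all genes, 0.897% were called lower and 34% lay below both H1 means. The H1 differentiations were themselves apart for this list, by -0.641 (2 minus 1). Without the live array of H1 differentiation 2, 4 members were called, and without its processed array 3. Without the processed array of H1 differentiation 1, 15 were called. SERPINC1, F2 and APOH were too dim to be compared.

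AFP, alpha-fetoprotein, gave 22.9 and 33.6 on the HUES8 arrays, against 6123, 7813, 7564 and 6559 on the H1 arrays. Both HUES8 arrays were under 40, and with them set to 40 HUES8 was at least 117-fold lower (adjusted p = 6.99e-07 by limma). FGB, a fibrinogen chain, stood at 18 and 26.3 on the HUES8 arrays, against 924, 1037, 727 and 849 on the H1 arrays (at least 15-fold, limma adjusted p = 7.18e-05). Its partner FGA gave 10.7 and 10.6 on the HUES8 arrays, against 89.4, 102, 68.8 and 68.3 on the H1 arrays (at least 1.68-fold, limma adjusted p = 0.0334), and FGG, at least 1.19-fold lower, was not called (limma adjusted p = 0.0649). The fibrinogen genes were separated between the lines on every array. APOA2, an apolipoprotein of HDL, stood at 51.8 and 51.6 on the HUES8 arrays, against 1527, 1423, 1145 and 813 on the H1 arrays (16.9-fold lower, limma adjusted p = 0.000204). APOA1 remained measurable in HUES8, at 254 and 303 on the HUES8 arrays, against 5905, 4648, 2327 and 2381 on the H1 arrays (11.9-fold lower, limma adjusted p = 0.00188). ALB, albumin, gave 30.8 and 32.9 on the HUES8 arrays, against 1059, 1090.4, 366 and 259 on the H1 arrays. It was at least 9.995-fold lower (adjusted p = 0.00888 by limma), with H1 differentiation 2 well under differentiation 1. AHSG, a carrier protein of fetal plasma, stood at 14.8 and 21.5 on the HUES8 arrays, against 303, 313, 142 and 128 on the H1 arrays (at least 3.75-fold lower, limma adjusted p = 0.0129). VTN, vitronectin, and HPX, the heme carrier hemopexin, completed the calls. VTN had a log2 difference of -2.01, and HPX, under 40 on both HUES8 arrays, was at least 1.92-fold lower.

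Some members of the list did not separate. SERPINA1, alpha-1 antitrypsin, gave 2158 and 2692 on the HUES8 arrays, against 3999, 4297, 2262 and 2212 on the H1 arrays (log2 difference -0.34, interval -1.22 to 0.55). TTR, transthyretin, stood at 2457 and 3064 on the HUES8 arrays, against 3531, 3353, 2038 and 2241 on the H1 arrays (log2 difference 0.02, interval -0.81 to 0.85). F10, coagulation factor X, gave 203 and 226 on the HUES8 arrays, against 279.9, 239, 103 and 111 on the H1 arrays (log2 difference 0.31, interval -0.65 to 1.27). The HUES8 mean lay between the H1 means for all of these. APOE, a lipid carrier of many tissues, stood at 1123 and 1330.5 on the HUES8 arrays, against 4488, 3829, 2822 and 2700.3 on the H1 arrays and was not called (log2 difference -1.45, limma adjusted p = 0.0942).

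H19, an imprinted RNA without a protein product, had the largest fitted difference of all genes, which the offset sets. It gave 22.1 and 20.4 on the HUES8 arrays, against 13094, 10094, 6468 and 4253 on the H1 arrays, at least 129.8-fold lower in HUES8 (adjusted p = 3.97e-06 by limma), beside a bound of 117-fold for AFP. Both HUES8 arrays were at background. IGF2, its imprinted neighbour, stood at 338 and 299 on the HUES8 arrays, against 565, 707, 112 and 81.2 on the H1 arrays, with HUES8 between the H1 differentiations (log2 difference 0.30, interval -1.23 to 1.83). Of 21 imprinted genes measured, H19 was called lower, PLAGL1 was called higher, and the median was -0.0209. PLAGL1 was not called without the live or the processed array of H1 differentiation 2, and 2 were called lower without the processed array of differentiation 1. PLAGL1, a zinc finger factor, gave 363 and 369.6 on the HUES8 arrays, against 84.8, 84.5, 106 and 98.6 on the H1 arrays (3.42-fold, limma adjusted p = 0.0249). Its call was lost under 5 of 16 alternatives. MEG3, another imprinted RNA, had a log2 difference of 0.96 and was not called.

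Among 12 amnion and trophoblast markers, 2 were called lower and 0 higher, with a median of -1.07. For 8 the HUES8 mean was below both H1 means, beside 34% of all genes. The differences of 4 members were above 0. TP63 had the highest, 0.97, and was not called (limma adjusted p = 0.462). The number called lower was 4 without the live array of H1 differentiation 1 and 6 without its processed array. HAND1, a factor of extraembryonic and heart cells, stood at 19.7 and 24.6 on the HUES8 arrays, against 799, 525, 1068 and 868 on the H1 arrays (at least 13.5-fold lower, limma adjusted p = 0.000127). CDX2, a factor of trophoblast and of intestine, gave 15.6 and 10.2 on the HUES8 arrays, against 351, 206, 304 and 363 on the H1 arrays (at least 5.32-fold lower, limma adjusted p = 0.000589). For both, all HUES8 arrays were under 40 and all H1 arrays far above it. GABRP, a receptor subunit listed with amnion, stood at 55.8 and 69 on the HUES8 arrays, against 225, 231, 1294 and 1295 on the H1 arrays and was not called (limma adjusted p = 0.0807). VTCN1 gave 42.1 and 48.3 on the HUES8 arrays, against 151, 133, 977 and 960.1 on the H1 arrays (limma adjusted p = 0.13). For GABRP and VTCN1 the HUES8 arrays were lowest, but the H1 differentiations were 2.41 and 2.61 apart on the log2 scale. NPPB, a natriuretic peptide, stood at 42.9 and 62.7 on the HUES8 arrays, against 955, 979, 541 and 562 on the H1 arrays (10.4-fold lower, limma adjusted p = 0.00109).

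In the intestine list, 2 of 7 genes were called lower (1 without the live or the processed array of H1 differentiation 2), CDX2 and the cadherin CDH17, which gave 32.1 and 14.4 on the HUES8 arrays, against 106, 128, 146 and 164 on the H1 arrays (limma adjusted p = 0.0209). The call of CDH17 was lost under 5 of 15 alternatives. VIL1, the brush border protein villin, had a log2 difference of 0.07, and the median of the list was -0.579. SCTR, the secretin receptor of duct and gut, stood at 54.9 and 53.4 on the HUES8 arrays, against 1109, 1496, 729.6 and 571 on the H1 arrays (12.6-fold lower, limma adjusted p = 0.001). HABP2, a protease secreted by liver, gave 13.5 and 18.7 on the HUES8 arrays, against 291, 335, 348 and 336 on the H1 arrays (at least 5.78-fold lower, limma adjusted p = 0.000567). The arrays of the lines did not overlap for CDH17, SCTR and HABP2, and did for VIL1.

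Foregut and progenitor transcription factors were lower in part. Of 17 measured, 3 were called lower and 0 higher, beside 0.897% and 0.408% of all genes. The count called lower was 0 without the live or the processed array of H1 differentiation 2, and 0 on processed arrays only. For 10 the HUES8 mean was below both H1 means, beside 34% of all genes, and the median was -0.273. SOX9, of progenitors and ducts, stood at 249.9 and 249 on the HUES8 arrays, against 867, 979, 623 and 887 on the H1 arrays (3.15-fold lower, limma adjusted p = 0.0385). Its call was lost under 6 of 16 alternatives. FOXA1 gave 694 and 768 on the HUES8 arrays, against 2298, 2738, 2128 and 1893 on the H1 arrays (3.02-fold lower, limma adjusted p = 0.0489), and its call was lost under 8 of 16 alternatives. PDX1, the master factor of pancreas, stood at 477 and 666 on the HUES8 arrays, against 2542, 2658, 1452 and 1415 on the H1 arrays and missed the threshold (log2 difference -1.74, limma adjusted p = 0.0632). Both HUES8 arrays were under all H1 arrays for PDX1. The log2 differences of FOXA2 and GATA6 were -0.17 and -0.11.

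The endocrine genes themselves gave no call. Of 9 hormone genes measured, 0 were called in either direction by limma (0 higher and 4 lower at an unadjusted p under 0.05, beside 10.2% of all genes), and the median was -0.421. Of 14 endocrine transcription factors 0 were called (4 higher and 2 lower at an unadjusted p under 0.05, beside the same 10.2%), and the median was 0.0923. Without either array of H1 differentiation 1, or without the processed HUES8 array, 1 endocrine factor was called higher. SST, somatostatin, gave 7339 and 7013 on the HUES8 arrays, against 2963, 2602, 6974 and 5929 on the H1 arrays (log2 difference 0.76, interval -0.23 to 1.75). GCG, glucagon, stood at 1115 and 978 on the HUES8 arrays, against 2029.7, 1980.0, 3634 and 2808 on the H1 arrays (log2 difference -1.26, interval -2.09 to -0.44). INS differed by 0.65, with an interval of -0.25 to 1.54. Both HUES8 arrays were below every H1 array for GCG and above every H1 array for SST and INS, while the H1 differentiations were 0.92 apart for INS and 1.21 apart for SST. PAX6, a factor of endocrine and neural cells, gave 372 and 295 on the HUES8 arrays, against 112, 109, 107 and 106 on the H1 arrays and was not called (log2 difference 1.45, limma adjusted p = 0.07). PAX4 stood at 30.1 and 26.7 on the HUES8 arrays, against 138, 155, 49.6 and 58.7 on the H1 arrays (at least 1.85-fold lower, limma adjusted p = 0.318), without a call.

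Epithelial genes lay on the lower side, with 3 of 16 called lower, 0 higher, 14 HUES8 means below both H1 means and a median of -0.617. Over all genes, 0.897% were called lower and 34% had a HUES8 mean below both H1 means. None of the 16 was called without the live or the processed array of H1 differentiation 2. KRT8, a keratin of simple epithelia, gave 499 and 727 on the HUES8 arrays, against 3677, 4657, 3073 and 3165 on the H1 arrays (5.8-fold lower, limma adjusted p = 0.00451). The rows KRT8P9 and KRT18P13, named for keratin pseudogenes, were 4.11-fold and 5.55-fold lower, and their probes may share sequence with the parent genes. KRT18 itself stood at 54.1 and 47 on the HUES8 arrays, against 76.5, 51.8, 61 and 89.7 on the H1 arrays (log2 difference -0.33). CLDN6, an embryonic tight junction protein, gave 69.4 and 90.6 on the HUES8 arrays, against 552, 490.3, 369 and 436 on the H1 arrays (4.8-fold lower, limma adjusted p = 0.00902). The arrays of the lines overlapped for KRT18 and for none of the others. PKP2, of desmosomes, was 3.71-fold lower (adjusted p = 0.0195 by limma). LGALS3, galectin 3, stood at 43.9 and 37 on the HUES8 arrays, against 1054, 814, 1327 and 622 on the H1 arrays (log2 difference -3.96 ± 0.34, limma adjusted p = 0.000127), with 1 of the HUES8 arrays under 40. KRT19, another simple keratin, had a log2 difference of -0.39.

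Some enzymes against oxidants and the metal-binding metallothioneins lay on the lower side. CAT, catalase, gave 6.16 and 3.66 on the HUES8 arrays, against 269.5, 287, 316 and 238 on the H1 arrays. It was at least 4.94-fold lower (adjusted p = 0.000268 by limma), and the H1 arrays lay close together. GSTA1, a glutathione transferase, stood at 10.6 and 4.57 on the HUES8 arrays, against 266, 254, 142 and 183 on the H1 arrays (at least 3.76-fold lower, limma adjusted p = 0.0018). GSTA2 gave 9.53 and 14.5 on the HUES8 arrays, against 179, 184, 142 and 148 on the H1 arrays (at least 3.04-fold lower, limma adjusted p = 0.00429). The GSTA genes are near-identical in sequence, so their probes may not tell them apart. These were the 3 members called of 22 antioxidant genes, whose median was -0.352, and 1 was called without the processed array of H1 differentiation 2. All 7 metallothioneins measured had a HUES8 mean below both H1 means, beside 34% of all genes. Their median was -1.21, against -0.399 between the H1 differentiations. MT1G was the 1 member called and stood at 20.5 and 23.6 on the HUES8 arrays, against 292, 221, 201 and 139 on the H1 arrays (at least 3.78-fold lower, limma adjusted p = 0.00745). The list had 2 calls without the live array of H1 differentiation 1, without its processed array 3, without the processed HUES8 array 2, and without the live or the processed array of H1 differentiation 2 0. MT2A, the most widely expressed, gave 69.7 and 66.9 on the HUES8 arrays, against 322, 261, 161 and 161 on the H1 arrays (log2 difference -1.42, limma adjusted p = 0.124). Metallothioneins are also close relatives in sequence.

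Collagens and mesenchymal genes gave few calls. Of 22 collagen chains 0 were called by limma, with 0 higher and 10 lower at an unadjusted p under 0.05. Of all 13483 genes, 759 were lower at that threshold, and 10.2% passed it in either direction. For 16 chains the HUES8 mean was below both H1 means, beside 34% of all genes. The list median was -0.711, against 0.302 between the H1 differentiations. Without the processed array of H1 differentiation 1, 3 chains were called lower. COL1A1 stood at 92.4 and 105 on the HUES8 arrays, against 292, 291, 281 and 239 on the H1 arrays (log2 difference -1.31, limma adjusted p = 0.103). COL3A1 gave 133 and 127 on the HUES8 arrays, against 235, 242, 1368 and 1272 on the H1 arrays (log2 difference -1.97, limma adjusted p = 0.258). The H1 cultures were alike for COL1A1 and 2.37 apart on the log2 scale for COL3A1, with HUES8 lowest for both. COL5A2 stood at 1475 and 1439 on the HUES8 arrays, against 455, 478, 1230.3 and 1033 on the H1 arrays (log2 difference 0.98). PDGFRA, a receptor of mesenchyme and of primitive endoderm, was the member called among 16 mesenchymal genes and gave 33.7 and 32.9 on the HUES8 arrays, against 197, 229, 143 and 160.5 on the H1 arrays (at least 3.33-fold lower, limma adjusted p = 0.0206). Of these 16, 2 were called lower without either array of H1 differentiation 1 or without the processed HUES8 array, and 0 without the live or the processed array of H1 differentiation 2. The call of PDGFRA was lost under 5 of 15 alternatives.

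Markers of the undifferentiated state gave 3 calls of 12, all lower, with 1 without the live array of H1 differentiation 2 and 0 without its processed array. Over all genes, 0.897% were called lower. The list median was -0.582. For 8 members the HUES8 mean was below both H1 means and for 4 above both, beside 34% and 35.5% of all genes. ZFP42, known as REX1, stood at 19 and 26.1 on the HUES8 arrays, against 263, 214, 368 and 274 on the H1 arrays (at least 4.91-fold lower, limma adjusted p = 0.00206). LEFTY1, an inhibitor of NODAL, gave 38.2 and 38.8 on the HUES8 arrays, against 356, 321, 219 and 180.3 on the H1 arrays (at least 4.66-fold lower, limma adjusted p = 0.013). L1TD1, an RNA-binding protein, stood at 50.3 and 48.2 on the HUES8 arrays, against 196, 229, 312 and 225 on the H1 arrays (3.72-fold lower, limma adjusted p = 0.0193). All HUES8 arrays were below all H1 arrays for these genes. POU5F1 was too dim to be compared, and the row of its pseudogene POU5F1P1 gave 5.64 and 8.83 on the HUES8 arrays, against 74.5, 64.8, 89.1 and 94.8 on the H1 arrays (limma adjusted p = 0.0197). The members on the higher side were SOX2, as given with the neural genes, LIN28 (log2 difference 0.49), LIN28B (0.42) and TERF1 (0.38), all without a call.

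**Figure D5:**
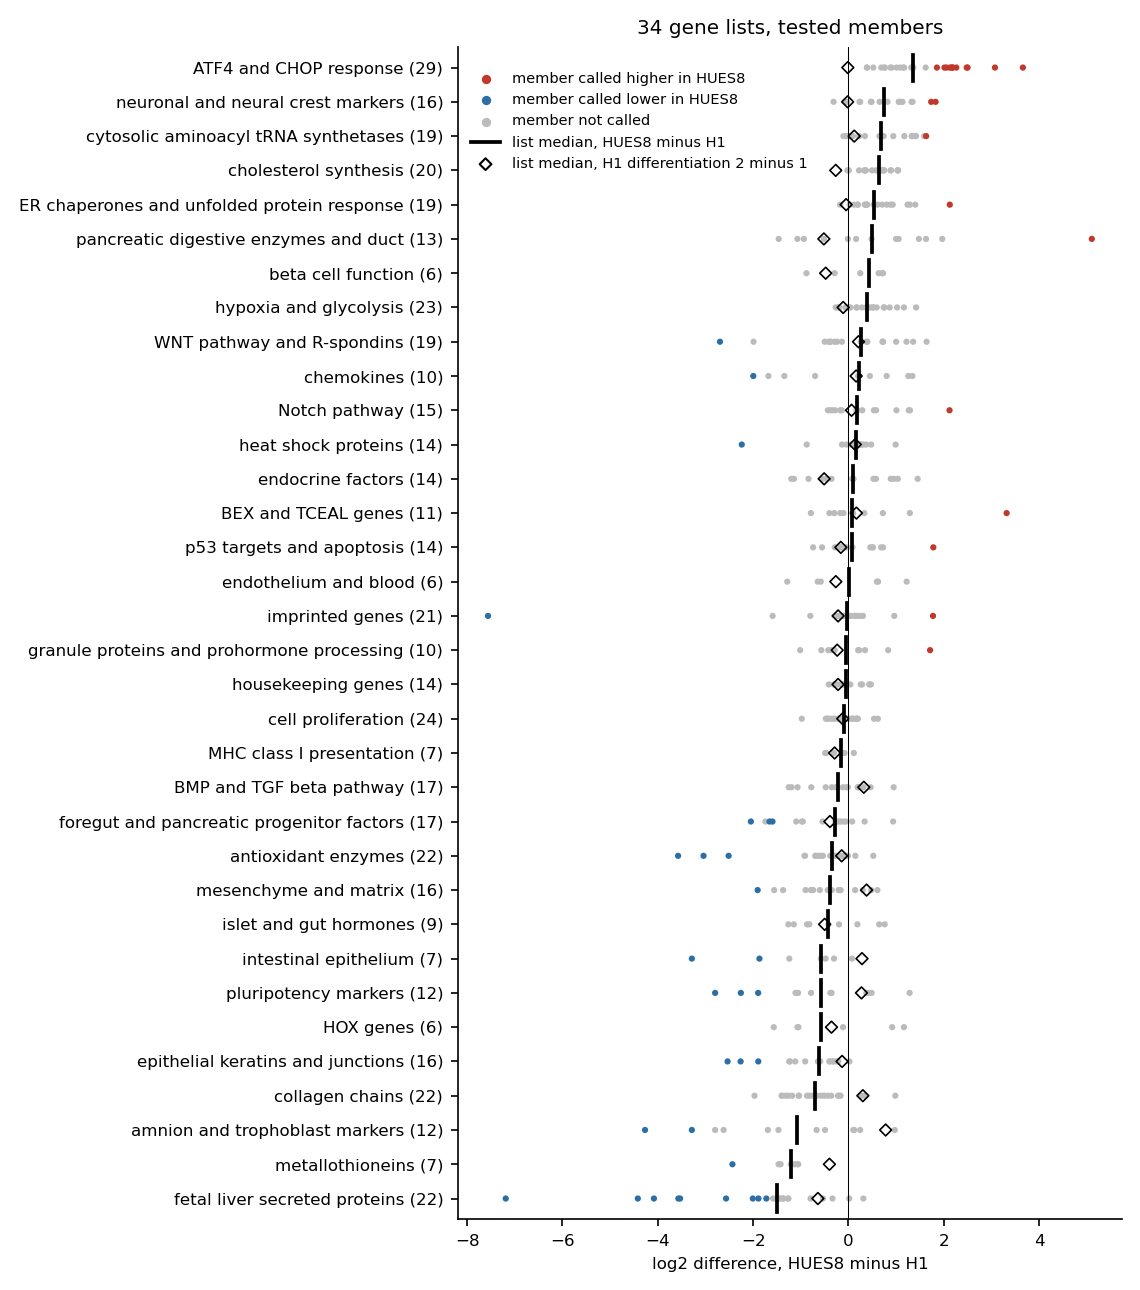
Log2 differences, HUES8 minus H1, of the measured members of 34 gene lists, ordered by list median (black bars), with the number measured in brackets. Red and blue points are members called higher and lower in HUES8, and open diamonds show the list median between the H1 differentiations, which for the ATF4 and CHOP response is -0.0134 beside 1.36.

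Several single genes outside the lists, chosen after their values were seen, were much dimmer in HUES8 than in H1. CHCHD2, a mitochondrial protein, stood at 103 and 109 on the HUES8 arrays, against 1048, 879.9, 1545 and 1017 on the H1 arrays (8.88-fold lower, limma adjusted p = 0.000954). The row of its copy CHCHD9 was 4.87-fold lower, and the probes may share sequence. ZNF248, a zinc finger gene, gave 12.4 and 6.08 on the HUES8 arrays, against 93.2, 168, 172 and 132 on the H1 arrays (at least 2.63-fold lower, limma adjusted p = 0.00474). DNAJC15, a mitochondrial cochaperone, stood at 20.8 and 21.3 on the HUES8 arrays, against 158, 171, 194 and 133 on the H1 arrays (at least 3.04-fold lower, limma adjusted p = 0.00943). PITX1, a homeobox factor of hindlimb, gave 44.9 and 43.8 on the HUES8 arrays, against 574, 549, 602 and 376 on the H1 arrays (8.34-fold lower, limma adjusted p = 0.000954). PCDHB5, a clustered protocadherin, stood at 56.9 and 55 on the HUES8 arrays, against 556, 487, 545 and 309.7 on the H1 arrays (6.36-fold lower, limma adjusted p = 0.00264). The H1 differentiations were less than 1 log2 unit apart for each of these. Of the 121 genes called lower, 59 had both HUES8 arrays under 40, and of the 55 called higher, 16 had all 4 H1 arrays under 40, so their fitted differences are limited by the offset and their folds are given as bounds. Such genes passed the filter only through the arrays of the other line, so their p-values are not independent of it. Among the 15 lowest, C8orf55 gave 34.9 and 32 on the HUES8 arrays, against 774, 749.8, 361 and 304 on the H1 arrays (at least 8.74-fold lower, limma adjusted p = 0.00332).

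In a few cases genes called lower were direct neighbours among the measured genes of a chromosome. ALB and AFP, FGB and FGA, GSTA2 and GSTA1, SLC7A2 and PDGFRL, and C8orf55 and LY6E formed such pairs, each called lower with its neighbour. The first 3 pairs are families of related genes that lie side by side.

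The genes called were also compared between preparations. Of the 176, 0 passed a test of the change in HUES8 minus H1 between processed and live arrays (limma, lowest adjusted p = 0.284, 5 at an unadjusted p under 0.05), against 28 of all 13483 (0.208%).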

How the data were processed

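RNA from whole stage 6 cultures was hybridised to Illumina Human HT-12 arrays, 1 per live or processed portion. The deposited values were intensities, 1 row per gene symbol, which the authors had background-subtracted and rank-invariant normalized in GenomeStudio, and 4.37% of them were below 0. A further deposited table of 6 signal columns was not used, since the names of its columns fit none of the labels. Values below 0 were set to 0, 20 was added and log2 was taken. Genes at 40 or more on at least 2 arrays were kept. Live and processed values were averaged within a differentiation, and the 3 means were fitted with lmFit and eBayes (limma 3.58.1, R 4.3.3), which left 1 residual degree of freedom and a prior of 11.3, with Benjamini-Hochberg adjustment over 13483 genes. The fit was tested on simulated data before use. These were drawn from the fitted prior, with HUES8 varying like H1, so that assumption was not checked. Live and processed arrays share a culture and are not replicates, and the H1 differentiations were labelled as separate samples. Where all arrays of a line (for BEX5, 3 of 4) were under 40, folds are bounds with arrays under 40 set to 40. The number of arrays limits the precision.

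Genes named were the 15 highest and 15 lowest called differences, the called members of each list (at most 6, or the 2 largest where 0 were called), 8 fixed markers, and the 3 members nearest to 0 of the ATF4 and fetal liver lists. All others named were chosen after their values were seen, and some that the rule selects are not reported here. The part of the data described, the lists and the rules were chosen with earlier results of these data known. Of 31410 symbols, 17753 matched a current RefSeq symbol, 3305 an older name of 1 gene and 10352 neither (Python 3.11.15). Promoter windows are from RefSeq on GRCh38.p14. Alternatives changed the offset, the scaling, the filter, the prior, the treatment of paired portions, the test and the arrays included.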

Additional observations from a re-analysis of the deposited data

Results flagged for a closer look

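The change of HUES8 minus H1 between processed and live arrays passed the limma test for 28 of 13483 genes (0.208%), against 578 at an unadjusted p under 0.05. For 26 the HUES8 minus H1 difference was greater on processed than on live arrays, and for 2 it was smaller. The sign does not tell which line changed with processing. Of these 28, 13 carry names of small RNAs and 0 are among the 176 genes called between the lines, whose lowest adjusted p in this test was 0.284. It was singled out because the effect of 1 contrast differs between conditions, and its cause was not tested.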

How the results depend on the processing

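All 176 genes kept their direction wherever an alternative tested them. Both HUES8 arrays lay outside the range of the H1 arrays for each, so leaving out arrays or changing the offset could not reverse it. Counts called higher and lower (55 and 121 as reported) were 35 and 74 with quantile normalization. They were 29 and 51 with 40 or more required on all 6 arrays (10621 genes tested). Without a filter on dim genes they were 0 and 0 (1570 genes at an unadjusted p under 0.05). With 6 arrays and differentiation as a random block they were 108 and 174. On live arrays only they were 28 and 71, and on processed arrays only 32 and 77. An ordinary t-test on the 3 log2 means, with 1 residual degree of freedom, gave 1 and 0 after Benjamini-Hochberg adjustment (835 before it). The study's methods ran theirs on mean signals in GenomeStudio with an Illumina false discovery rate model, so it is not the same test. Leaving out each array in turn gave 5 to 125 higher and 18 to 226 lower, with 96 higher without the live array of H1 differentiation 1, 125 and 226 without its processed array, 5 and 23 without the live array of H1 differentiation 2, 5 and 18 without its processed array, and 88 higher without the processed HUES8 array. Genes at least 2-fold apart and outside both H1 means numbered 199 higher and 306 lower with an offset of 50, and 205 and 274 with 40 required on all 6 arrays. The 28 genes whose difference changed between preparations became 5 with an offset of 50, 6 with an offset of 10, 10 after scaling every array to 1 median, 0 without the filter and 15 with an intensity trend in the prior. Of the 56 called genes that the naming rule selects, 17 were called under each of 16 limma alternatives that tested them, the fit without a filter aside, and 34 lost the call without the live array of H1 differentiation 2, 39 without its processed array. These counts leave out called genes named outside the rule. The ATF4 and CHOP list had 2 to 16 members called over those alternatives, and the fetal liver list 2 to 15. The causes were not tested.

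The named genes that changed sign were near 0 and not called. ACTB came to 0.0513 on live arrays only, -0.191 without H1 differentiation 2 and 0.00981 without differentiation 1. CHGA ran between -0.754 and 0.178 without either differentiation, F10 between -0.254 and 0.879, and SERPINA1 between -0.777 and 0.107. GAPDH was -0.179 with quantile normalization, -0.0821 on processed arrays only, -0.103 without the live HUES8 array, and -0.265 and 0.344 without either H1 differentiation. TTR was -0.0498 with quantile normalization, -0.126 on live arrays only, -0.00197 and -0.0174 without the processed array of H1 differentiation 1 and the live array of differentiation 2, -0.142 without the processed HUES8 array, and -0.324 to 0.358 without either differentiation.

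No paired analysis was possible because HUES8 and H1 share no replicate number. Leaving out a whole H1 differentiation gives values only, since no residual degree of freedom is left. Both HUES8 arrays come from 1 culture, so no value here measures the spread between HUES8 cultures. At the median standard error a log2 difference of 0.76 reached an unadjusted p of 0.05. Intensities near background limit the fold of dim genes to a bound.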

Other observations

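Signalling pathways gave single calls. HES5, given with the neural genes, was the 1 gene called of 15 of the Notch pathway (median log2 difference 0.189), and 2 were called without the live array of H1 differentiation 1. The calls of the Notch, chemokine, p53 and heat shock lists below were absent without the live or the processed array of H1 differentiation 2, and that of the WNT list without the processed one. Of 19 genes of the WNT pathway and R-spondins, SFRP5, a secreted WNT inhibitor, was called lower, at 20 and 24.6 on the HUES8 arrays, against 227, 314, 207 and 279 on the H1 arrays (at least 4.56-fold, limma adjusted p = 0.00206), and the median was 0.258. The WNT list gave 1 call higher and 2 lower without the live array of H1 differentiation 1, without its processed array 2 and 2, and without the processed HUES8 array 1 and 1. Of 17 genes of BMP and TGF beta signalling 0 were called by limma (1 higher and 4 lower at an unadjusted p under 0.05, beside 10.2% of all genes in either direction). BAMBI, a decoy receptor of that pathway, stood at 978 and 820.4 on the HUES8 arrays, against 1799, 1392, 3057 and 2413 on the H1 arrays (log2 difference -1.19, limma adjusted p = 0.221). Among 10 chemokines CXCL1 was called lower, at 30.3 and 25.1 on the HUES8 arrays, against 139, 167, 235 and 152 on the H1 arrays (at least 3.17-fold, limma adjusted p = 0.0146). Chemokines called lower numbered 2 without the live array of H1 differentiation 1, without its processed array 3, and without the processed HUES8 array 2 higher and 1 lower. The lines did not overlap on any array for SFRP5 and CXCL1.

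PMAIP1, which encodes the cell death protein NOXA, was called higher among 14 p53 targets and apoptosis genes, at 184 and 174 on the HUES8 arrays, against 36.2, 40.7, 38.7 and 35.9 on the H1 arrays (log2 difference 1.78, limma adjusted p = 0.0228), beside a list median of 0.0779. The call of PMAIP1 was lost under 5 of 15 alternatives. HSPB8, a small heat shock protein, was called lower among 14 heat shock genes, at 67.4 and 76.1 on the HUES8 arrays, against 497, 588, 339.8 and 289 on the H1 arrays (log2 difference -2.24, limma adjusted p = 0.0145), while the list median was 0.159. Of 24 proliferation genes 0 were called by limma (0 higher and 1 lower at an unadjusted p under 0.05, where all genes gave 10.2%), with a median of -0.0978. Of 6 measured HOX genes 0 were called by limma (2 higher and 3 lower at an unadjusted p under 0.05, beside the 10.2% of all genes). HOXB2 had a log2 difference of 1.16, and HOXC4 was under 40 on both HUES8 arrays and on 2 of 4 H1 arrays. Of 14 housekeeping genes 0 were called (limma, 0 at an unadjusted p under 0.05, against the 10.2%). ACTB, a cytoskeletal actin, gave 7783 and 7097 on the HUES8 arrays, against 7985, 9026, 7064 and 7714 on the H1 arrays (log2 difference -0.09, interval -0.84 to 0.66). GAPDH, a glycolytic enzyme, gave 9071 and 7436 on the HUES8 arrays, against 10102, 9644, 6504 and 6425 on the H1 arrays (log2 difference 0.04, interval -0.77 to 0.85), and the lines overlapped for both.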
